A study of Mus musculus with 6 samples.

Results

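The cell division cycle genes examined here were 40 genes that drive, restrain or mark cell proliferation, and their transcripts were compared between mouse hearts after a high fat diet (HFD) and after a normal diet (ND). The members were chosen by name and not by their values: every probe other than a control whose gene name on the array was one of the 40 names, of 36163 names in all, was taken. All 40 were on the array, with 58 probes between them. The mice were male C57BL/6, were put on their diet at 4 weeks of age and were kept on it for 4 months, and each diet had 3 hearts. In the HFD 60% of kcal came from fat, the ND was standard chow, and the labels name no transgene or other treatment in either diet. The labels name the tissue as heart without a chamber or a cell type, so that a lower level can mean fewer cells of a type or less RNA per cell, which cannot be told apart in whole tissue.

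Each heart was read on 1 Agilent mouse array in 1 colour, and all 6 arrays lay on 1 slide. Levels are given as log2 of the background-subtracted intensity relative to the 75th percentile of the array, so that a level of 0 equals that percentile. A level depends on the probe as well as on the RNA, and no difference between probes is read as one in RNA. Levels of different probes were compared to choose 1 probe per gene and the members printed for each role. They were also combined in the summed levels of cell type markers and in 1 alternative that averages a gene's probes. By the test of the extraction software, 49.22% to 52.95% of an array's probes stood well above background. HFD 1 and HFD 2 lay on row 1 of the slide and the other 4 arrays on row 2. The software rated the array of HFD 2, which had a spike-in slope of 0.896, as one to evaluate. All 10 cardiomyocyte marker genes, such as *Myh6* and *Tnnt2*, were well above background on all 6 arrays.

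A dividing cell passes from G1 through DNA synthesis (S phase) and G2 into mitosis. Cyclins switch on cyclin-dependent kinases at each step, D cyclins with Cdk4 in G1, cyclin E with Cdk2 at the start of S phase, and cyclins A and B with Cdk1 in G2 and mitosis, while inhibitors of the CIP/KIP and INK4 families hold the kinases in check. Most cardiomyocytes leave the cycle soon after birth, and endothelial cells, fibroblasts and immune cells of the adult heart keep the ability to divide. Transcripts of S phase and mitosis are rare in adult heart tissue, whereas D cyclins, the inhibitors and some replication proteins are also made by cells that do not divide.

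Of the 40 genes, 35 had at least 1 probe well above background on all 6 arrays. No probe of *Ccne2*, *Aurkb* or *Bub1* was well above background on any array, and each of these genes was read by 1 probe. These encode cyclin E2, the kinase of the chromosomal passenger complex and a kinase of the spindle checkpoint. *Top2a*, the topoisomerase that untangles DNA before mitosis, was well above background in 1 of 3 ND hearts and in 3 of 3 HFD hearts. *Cdc6*, the loader of the replicative helicase, had 2 probes, each above background on a single array. Over single probes, 44 of the 58 (75.9%) were well above background on all 6 arrays, 6 on some arrays and 8 on none, against 46.5% of all probes above it on all 6.

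For several genes the choice of probe decided whether a level could be read, as the plot of probes shows. Of the 13 genes with more than 1 probe, *Ccnb1*, *Cdk1* and *Foxm1* each had 1 readable probe beside 1 or more that were not well above background on any array. *Ccne1*, cyclin E1, had 1 probe above background on all arrays and another above it in HFD 1 only. Sequences are shown for the unreadable probes of *Ccnb1* and *Ccne1*, for the markers *Top2a* and *Mki67*, and for *Birc5* and *Cdk4* as probes that could be read in every heart. They stand in lower case from 5′ to 3′ with the mm9 positions of the files, and no letters are marked. Their place within exons was not analysed here. Of these, the *Ccnb1* probes gave no readable level on any array, the *Ccne1* probe on 1 and the *Top2a* probe on 4, while the *Mki67*, *Birc5* and *Cdk4* probes were readable on all 6.
Ccnb1 A_55_P2128668, chr13:101553449-101553508, minus strand: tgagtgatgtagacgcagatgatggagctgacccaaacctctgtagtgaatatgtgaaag
Ccnb1 A_55_P1952256, chr13:101551224-101551283, minus strand: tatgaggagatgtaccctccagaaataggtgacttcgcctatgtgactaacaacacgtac
Ccne1 A_66_P125327, chr7:38885574-38885633, minus strand: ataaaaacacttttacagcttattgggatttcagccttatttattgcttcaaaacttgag
Top2a A_55_P1995205, chr11:98855522-98855581, minus strand: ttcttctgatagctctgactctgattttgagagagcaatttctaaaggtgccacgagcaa
Mki67 A_55_P2073377, chr7:142884764-142884823, minus strand: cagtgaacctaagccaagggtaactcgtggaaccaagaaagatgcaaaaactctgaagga
Birc5 A_55_P1983768, chr11:117711112-117711171, plus strand: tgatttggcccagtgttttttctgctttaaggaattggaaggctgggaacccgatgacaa
Cdk4 A_55_P2166639, chr10:126503162-126503221, plus strand: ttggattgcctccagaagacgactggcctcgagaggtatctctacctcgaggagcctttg
The 2 *Ccnb1* probes and the *Mki67* and *Birc5* probes have the same GC content of 45.0%, and the *Ccne1* probe has 30.0%. The *Top2a* probe has 41.7% and the *Cdk4* probe 55.0%. Whether GC content bears on readability was not tested.

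**Figure D1:**
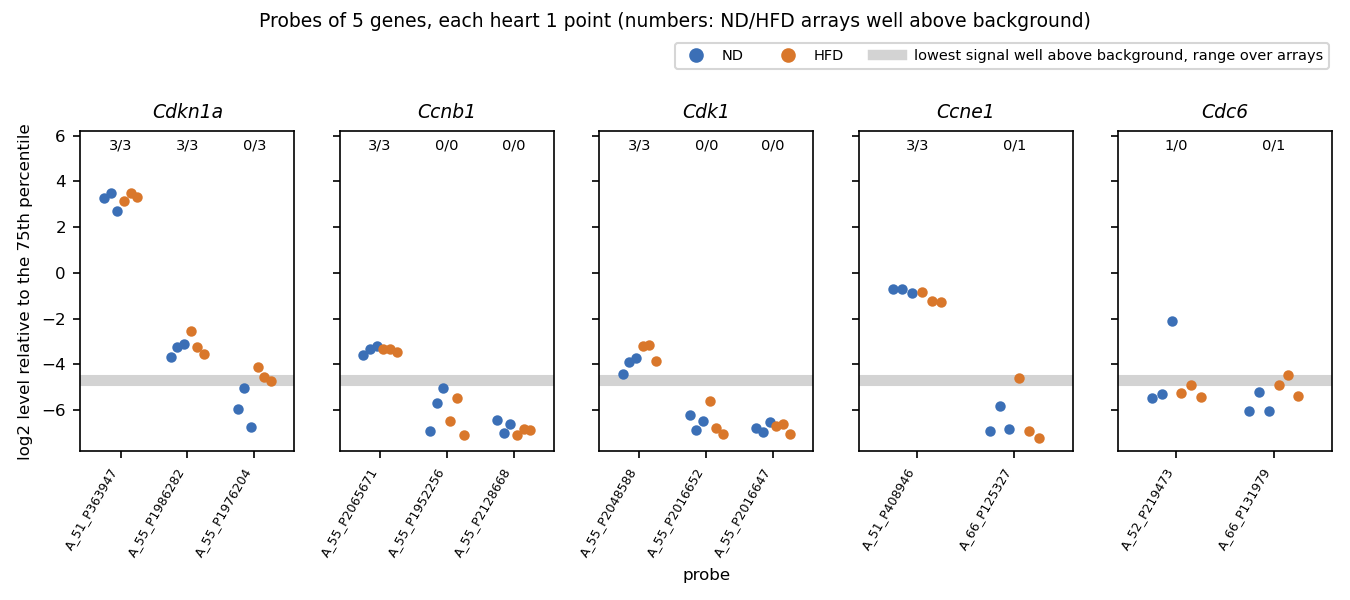
Levels (y axis, log2 relative to the 75th percentile of the array) of every probe (x axis) of *Cdkn1a*, *Ccnb1*, *Cdk1*, *Ccne1* and *Cdc6*, with each heart as 1 point, the grey band marking the range over arrays of the lowest signal well above background, and numbers giving the ND and HFD arrays above it. In each panel at least 1 probe lies mostly at or under the band, and *Cdc6* has a single high point, ND 3.

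The comparison asked which of these genes differed between HFD and ND hearts. After the filter on dim probes, 36 of the 40 genes and 46 of the 58 probes could be tested, and the 4 genes not tested were *Ccne2*, *Aurkb*, *Bub1* and *Cdc6*. *Top2a* and 1 *Cdkn1a* probe passed the filter only through the HFD hearts. Each gene is represented by its tested probe with the highest mean level unless another probe is named. In limma, 0 of the 36 genes passed the Benjamini-Hochberg adjustment at 0.05, where 0.0145% of the 27585 probes tested did, and the lowest adjusted p of a member was 0.284. The methods' t-test also gave 0 after adjustment. Before adjustment 3 genes (8.33%) had p below 0.05, *Mcm2* and *E2f1* higher and *Ccne1* lower in HFD, against 11.9% of all probes tested (5.24% higher and 6.63% lower). The share of members was thus no larger than that of all probes. Without HFD 2 the number was 1 and without ND 3 it was 5, and the methods' t-test gave 3, which were *Mcm2*, *Mcm3* and *Plk1*. *Mcm2* was thus the only member under both tests.

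The log2 fold changes of the members were small. In HFD, 19 were higher and 17 lower, and the 19 include *Top2a*, which passed the filter only through the HFD hearts. The median log2 fold change of the members was 0.00706, where the median of all probes tested was −0.00812. With a filter on all 6 arrays, which leaves out *Top2a*, the median of the 35 members tested was 0.00155. The median size of the change was 0.103 for the members and 0.113 for all probes. A change of under 0.2 was measured for 29 members (80.6%), against 71.4% of all probes, and only *Mcm2* and *Cdk1* among the members reached 0.5. In the comparison of the diets the members are counted by 1 probe per gene, the brightest tested. All probes include dimmer ones of the same genes, so that the shares set side by side are of unlike units. The diets did not overlap for 6 members (16.7%), against 19.0% of all probes. The HFD hearts were the higher ones for 4 of the 6 (*Mcm2*, *E2f1*, *Cdk2* and *Mcm3*), as for 7.92% of all probes, and the lower ones for 2 (*Plk1* and *Mki67*), as for 11.1%. For 25 of the 36 members the 95% interval of the log2 fold change, unadjusted, lay within 0.5 of 0 on both sides, which is a 1.41-fold change. For the other 11 these arrays leave a larger change possible, and for *Cdk1* the interval passed 1.

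**Figure D2:**
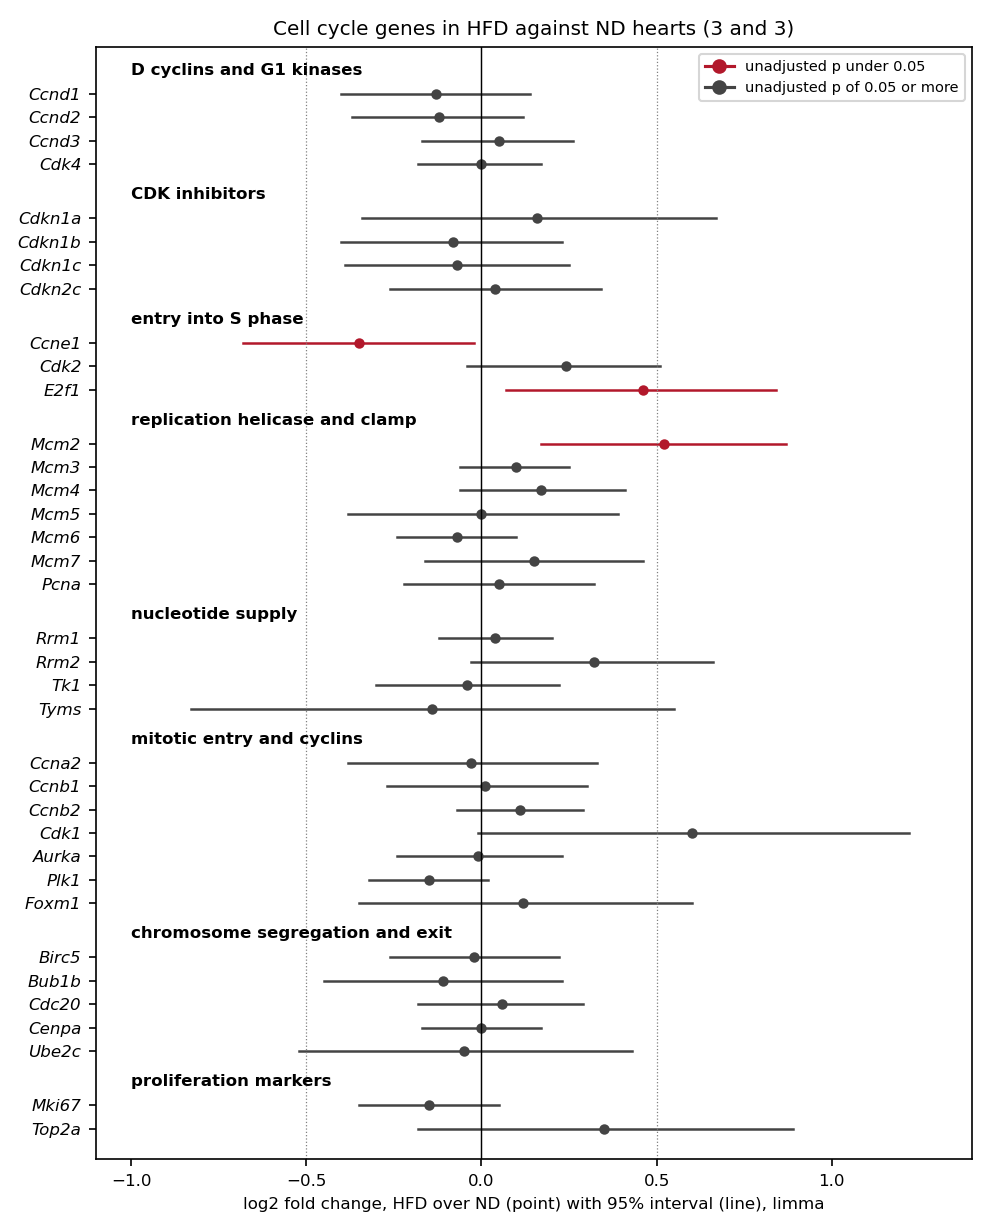
Log2 fold change of HFD over ND (x axis) for the 36 genes tested, grouped by role, with the limma estimate as a point and its unadjusted 95% interval as a line; dotted lines stand at −0.5 and 0.5. The intervals of *Mcm2*, *E2f1* and *Ccne1*, in red, leave out 0, and that of *Cdk1* is among the widest.

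The D cyclins and their kinase were readable in every heart, and none of their differences passed the test. *Ccnd1*, cyclin D1, lay at 4.22, 4.13 and 3.93 in the ND hearts and 3.98, 4.09 and 3.82 in the HFD hearts. The diets overlapped, and the log2 fold change was −0.13 (SE 0.11, adjusted p = 0.707 in limma). *Ccnd3*, cyclin D3, was at 4.42, 4.50 and 4.43 in the ND hearts and 4.42, 4.65 and 4.42 in the HFD hearts, so that only HFD 2 stood above the ND hearts. *Ccnd2* had a log2 fold change of −0.12 (95% interval −0.37 to 0.12). *Cdk4*, the kinase that D cyclins activate, was read by 3 probes with log2 fold changes between −0.0017 and 0.01, and the interval of the brightest one ran from −0.18 to 0.17.

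None of the differences of the CDK inhibitors passed the test. *Cdkn1a* encodes p21, the inhibitor that p53 induces, and its brightest probe (transcript NM_007669) was at 3.27, 3.47 and 2.72 in the ND hearts and 3.14, 3.48 and 3.31 in the HFD hearts. ND 3 was the lowest heart and the diets overlapped, and limma gave a log2 fold change of 0.16 (SE 0.21) and an adjusted p of 0.806. A probe of another transcript (NM_001111099), which lies upstream on chromosome 17, gave 0.23 (SE 0.28). The third probe, A_55_P1976204, was designed on ENSMUST00000122348 at chr17:29235299-29235358 of mm9. Its intensities were 7.98, 14.6 and 4.39 in ND, not well above background in any heart, and 30.1, 19.5 and 20.4 in HFD, above it in all 3. It entered the test only through the HFD hearts, and its adjusted p of 0.311 in limma is no measure of a difference in RNA. The ND level is only a bound. It was taken as the mean over ND arrays of their dimmest accepted signal (that of any probe well above background). Where the probe's own signal was higher, that signal was used. The HFD mean was 1.11-fold this bound, but HFD 3, at −4.74, lay under it (−4.61). HFD 1 and HFD 2 were at −4.10 and −4.54. As the probe entered only through the HFD hearts, this ratio is no measure of a difference in RNA either.

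The other inhibitors were *Cdkn1b* (p27), *Cdkn1c* (p57) and *Cdkn2c* (p18), with log2 fold changes of −0.08, −0.07 and 0.04. HFD 1 was the lowest heart for the chosen *Cdkn1b* probe and for *Cdkn1c*, at 2.24 and 2.13, where the other 5 hearts lay between 2.55 and 2.68 and between 2.41 and 2.56. The other *Cdkn1b* probe (A_52_P673863), readable on all 6 arrays, did not share this, with HFD 1 at −3.20 among hearts from −3.35 (ND 2) to −3.01 (HFD 3).

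The genes of entry into S phase held 2 of the 3 members at an unadjusted p below 0.05, in opposite directions. *E2f1*, the transcription factor that switches on replication genes once RB is phosphorylated, was at −3.58, −3.15 and −3.05 in the ND hearts and −2.71, −2.76 and −2.95 in the HFD hearts. The probe lies at chr2:154385798-154385857 of mm9. Each HFD heart was above each ND heart, and the log2 fold change was 0.46 (SE 0.16, limma unadjusted p = 0.0264, adjusted p = 0.357). The ND hearts were spread more widely than the HFD hearts (SD 0.28 and 0.13). Normexp background correction brought the difference to 0.21 (unadjusted p = 0.0713), and leaving out HFD 1 or HFD 2 brought the unadjusted p to 0.0792 and 0.0693. Without ND 1, the lowest heart, the difference was 0.30. The methods' t-test gave an unadjusted p of 0.0618. Since only HFD 3 shares its slide row with the ND hearts, a fit with slide row as a block sets HFD 3 alone against the 3 ND hearts, and its p-value assumes that HFD 3 varies like the other hearts. That fit gave 0.32 (limma unadjusted p = 0.221).

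The readable *Ccne1* probe, at chr7:38882937-38882960 of mm9, was at −0.72, −0.69 and −0.88 in the ND hearts and −0.84, −1.23 and −1.27 in the HFD hearts. HFD 1 lay among the ND hearts and the other HFD hearts lay below all of them. The log2 fold change was −0.35 (SE 0.13, limma unadjusted p = 0.0411, adjusted p = 0.404), and it ran from −0.27 without HFD 3 to −0.48 without HFD 1. Leaving out ND 1, ND 2, HFD 2 or HFD 3 took the unadjusted p above 0.05, to between 0.104 and 0.122. The methods' t-test gave an unadjusted p of 0.0786. HFD 3 alone, the value with slide row as a block, lay at −0.50 from the ND mean, which adds no replicate to the comparison. For *Cdk2*, the kinase that cyclin E binds, limma gave 0.24 on the log2 scale (SE 0.11, adjusted p = 0.477), with each HFD heart above each ND heart. The probes of *Cdc6* were well above background in 2 readings only: A_52_P219473 had an intensity of 110 in ND 3 and of at most 15.1 in the other 5 hearts, and A_66_P131979 had 20.7 in HFD 2. The high reading of ND 3 was not shared by the second probe, which had 7.27 there.

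**Figure D3:**
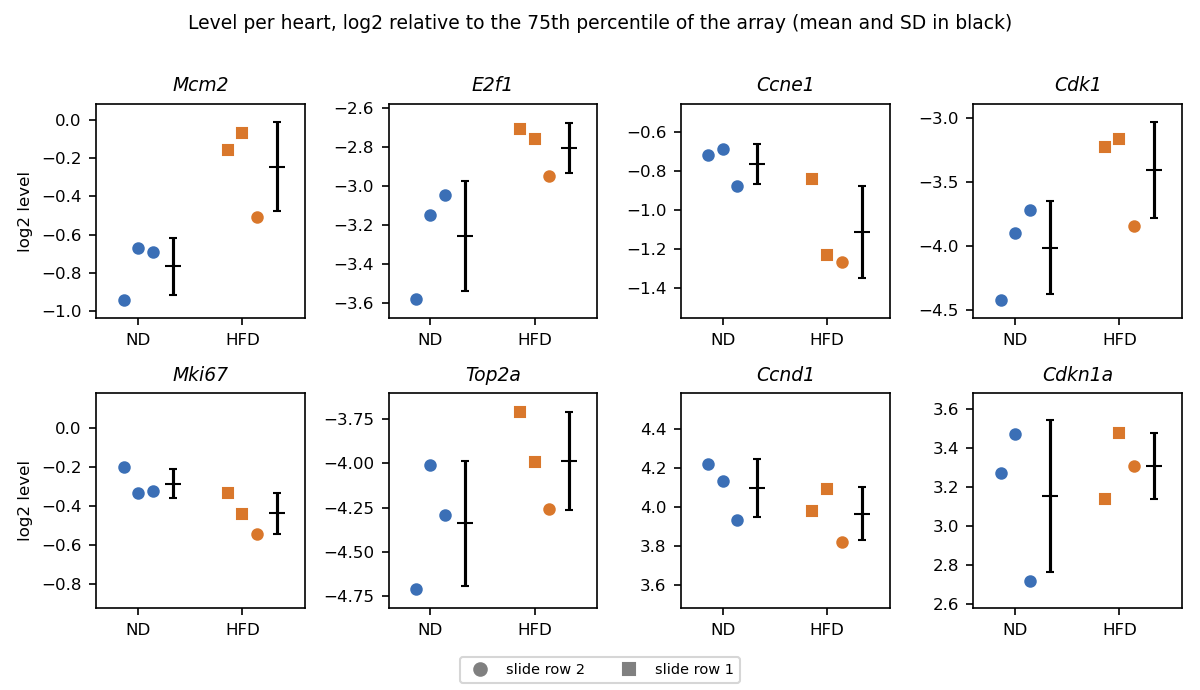
Level per heart (y axis, log2 relative to the 75th percentile of the array) for 8 genes in ND and HFD hearts (x axis), with circles for slide row 2, squares for slide row 1 and the mean with its SD (n = 3) in black. For *Mcm2* and *Cdk1* the HFD hearts on row 1 are the 2 highest, and HFD 3 on row 2 is the HFD heart nearest to ND.

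Of the helicase and clamp genes, *Mcm2* had the largest log2 fold change. The Mcm2-7 proteins form the ring that unwinds DNA at replication forks, and *Pcna* is the sliding clamp of the polymerases. The *Mcm2* probe, at chr6:88833619-88833678 of mm9, was at −0.94, −0.67 and −0.69 in the ND hearts and −0.16, −0.07 and −0.51 in the HFD hearts. Each HFD heart was above each ND heart, with a log2 fold change of 0.52 (SE 0.14, 1.43-fold, limma unadjusted p = 0.0109, adjusted p = 0.284). The unadjusted p stayed below 0.05 with any 1 heart left out. HFD 3 exceeded the ND mean by 0.25, which is the value with slide row as a block (limma unadjusted p = 0.14, from HFD 3 alone). Row 1 held HFD hearts only, so that row and diet cannot be told apart for HFD 1 and HFD 2. HFD 3 alone also stood at 0.40 from the ND mean for *Mcm7* and at −0.44 for *Ube2c*, where the log2 fold changes over all 3 HFD hearts were 0.15 and −0.05.

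The other members of the ring had smaller log2 fold changes than *Mcm2*, a difference between genes that was not tested. *Mcm3* had a log2 fold change of 0.10 at both of its probes, *Mcm4* of 0.17 and *Mcm7* of 0.15, while *Mcm5* had one of 0.00155 and *Mcm6* of −0.07. None of these had an unadjusted p below 0.05 in limma. *Mcm7* was highest in HFD 3, at 1.91, and the other 5 hearts lay between 1.42 and 1.58. *Pcna* was at 3.63, 3.48 and 3.53 in the ND hearts and 3.42, 3.79 and 3.59 in the HFD hearts, and the HFD hearts spanned the ND hearts.

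Nucleotide supply for DNA synthesis was read by 4 genes. *Rrm1* and *Rrm2* encode the subunits of ribonucleotide reductase, of which the second is made in S phase. *Rrm1* was at 0.68, 0.68 and 0.75 in the ND hearts and 0.70, 0.78 and 0.76 in the HFD hearts, a log2 fold change of 0.04 (95% interval −0.12 to 0.20). *Rrm2* was at −0.27, −0.19 and −0.08 in the ND hearts and 0.08, 0.42 and −0.09 in the HFD hearts, with HFD 2 highest and HFD 3 within the ND range, and its log2 fold change of 0.32 had an adjusted p of 0.457 in limma. *Tk1*, thymidine kinase, and *Tyms*, thymidylate synthase, had log2 fold changes of −0.04 and −0.14, and the wide spread of *Tyms* among HFD hearts (SD 0.55) left its interval at −0.83 to 0.55.

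Among the mitotic genes, *Cdk1* had the largest log2 fold change, from a probe close to background. The kinase starts mitosis with cyclin B. Its readable probe, at chr10:68801072-68801131 of mm9, was at −4.42, −3.90 and −3.72 in the ND hearts and −3.22, −3.16 and −3.84 in the HFD hearts. HFD 1 and HFD 2 were above all ND hearts and HFD 3 lay within them. The log2 fold change was 0.60 (SE 0.25, limma unadjusted p = 0.0532, adjusted p = 0.429), HFD 3 alone, as with slide row as a block, gave 0.17, and with normexp background correction 0.23. Another *Cdk1* probe, at chr10:68801053-68801112 on the same strand, overlaps the readable one and was not well above background in any heart. Why it was not readable was not tested. The cyclins that bind *Cdk1* had log2 fold changes nearer to 0. *Ccnb1* was at −3.61, −3.32 and −3.22 in the ND hearts and −3.31, −3.35 and −3.46 in the HFD hearts, a log2 fold change of 0.01 (95% interval −0.27 to 0.30). *Ccnb2*, cyclin B2, was at −1.08, −1.01 and −1.05 in the ND hearts and −0.89, −0.88 and −1.04 in the HFD hearts, and *Ccna2*, cyclin A2, had a log2 fold change of −0.03. *Foxm1*, the factor that drives late cycle genes, had a log2 fold change of 0.12 and the kinase gene *Aurka* of −0.01. *Plk1*, the polo kinase, was lower in each HFD heart than in each ND heart, by 0.15 on the log2 scale (SE 0.07, adjusted p = 0.469).

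For the genes of chromosome segregation and mitotic exit the median size of the log2 fold change was 0.0453, the smallest of the roles. *Cenpa*, the histone H3 variant of centromeres, was at 2.62, 2.52 and 2.49 in the ND hearts and 2.58, 2.55 and 2.50 in the HFD hearts. Its log2 fold change was −0.00323 (95% interval −0.17 to 0.17). *Birc5* (survivin), *Bub1b* (a spindle checkpoint protein), *Cdc20* (an activator of the anaphase-promoting complex) and *Ube2c* (the ubiquitin-conjugating enzyme of that complex) had log2 fold changes between −0.11 and 0.06. The 2 tested probes of *Birc5* gave −0.02 and 0.29, the second from an SE of 0.30, and those of *Ube2c* gave −0.05 and −0.14.

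Neither proliferation marker passed the test. *Mki67* encodes Ki-67, the nuclear protein used to stain cycling cells. Its brightest probe was at −0.20, −0.33 and −0.32 in the ND hearts and −0.33, −0.44 and −0.54 in the HFD hearts, where HFD 1 lay just below ND 2. The log2 fold change was −0.15 (SE 0.08, limma adjusted p = 0.543), and the probe printed above gave −0.02 (95% interval −0.23 to 0.18). *Top2a* was at −4.71, −4.01 and −4.29 in the ND hearts and −3.71, −3.99 and −4.26 in the HFD hearts, close to background. Only 1 of the 3 ND hearts had it well above background, so that it was tested only through the HFD hearts and its log2 fold change of 0.35 (SE 0.22, limma adjusted p = 0.593) gives no direction. Over hearts, the median difference of the 36 members from their ND means was −0.005 in HFD 1, 0.096 in HFD 2 and 0.012 in HFD 3, and the ND hearts ranged from −0.047 to 0.048.

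**Figure D4:**
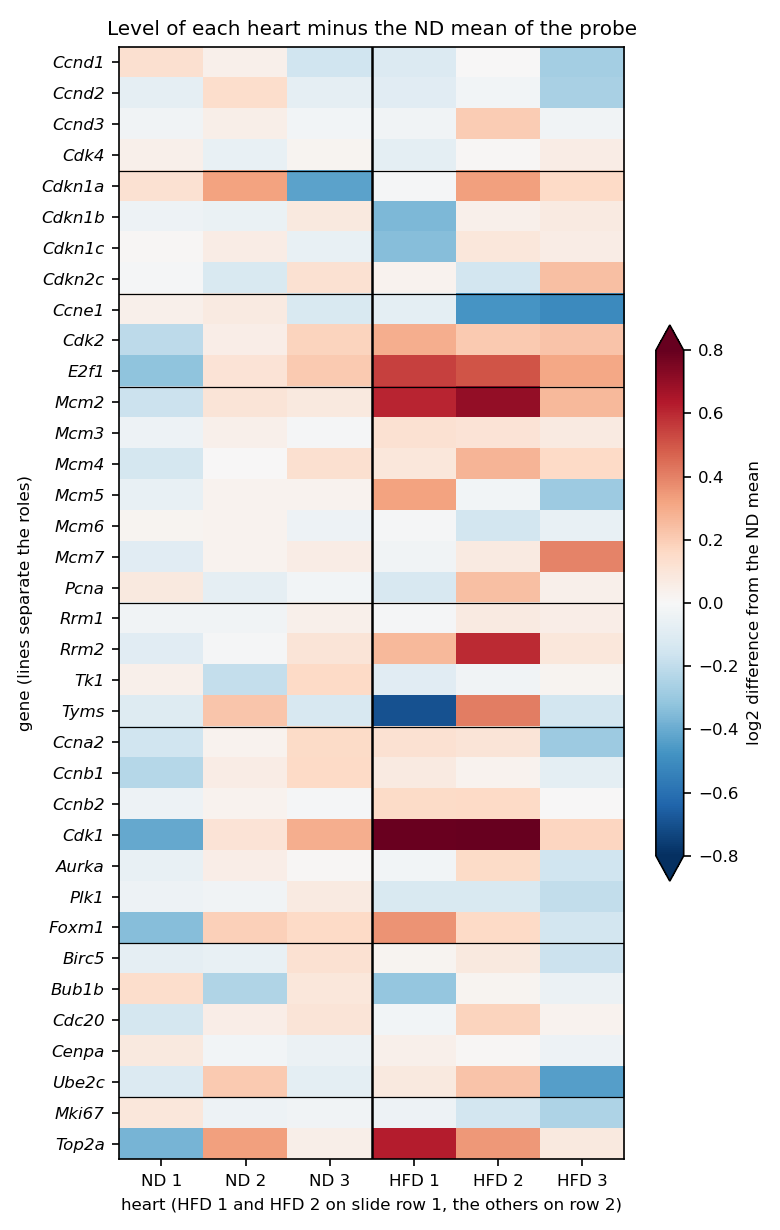
Difference of each heart (x axis) from the ND mean of the same probe, on the log2 scale (colour), for the 36 genes tested (y axis, roles separated by lines). Most cells are pale, and the darkest HFD cells belong to *Cdk1*, *Mcm2*, *Top2a*, *Rrm2* and *Tyms* in HFD 1 or HFD 2.

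Promoters were searched for letters that mark cell cycle control in general: E2F sites (TTTCCCGC, TTTCGCGC, TTTGCCGC or TTTGGCGC), the cell cycle homology region or CHR (TTTGAA) and the CCAAT box (CCAAT), on both strands, in the 300 bases around any RefSeq start site of a gene in GRCm38.p6. The CHR is bound by the DREAM complex, which represses late cycle genes in resting cells, and the CCAAT box by the activator NF-Y. Of the 40 members 32 were matched. An E2F site was in 7 of them (21.9%), against 2.6% of the 27025 genes in the table. The CHR was in 11 (34.4%) against 20.2%, the CCAAT box in 24 of the 32 against 41.1%, and both together in 11 (34.4%) against 7.97%. The E2F matches lay in *Mcm3*, *Mcm5*, *Mcm6*, *Mcm7*, *Cdc6*, *Cdk2* and *Cdk1*. The CHR matches lay mostly in mitotic genes, *Cdk1*, *Plk1*, *Ccnb2*, *Aurka*, *Bub1b*, *Cdc20*, *Cenpa*, *Ube2c*, *Mki67* and *Top2a*, and in *Mcm2*. A match is a description of the letters and not of binding.

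The promoters of *Mcm2* and *Cdk1*, the members with the 2 largest log2 fold changes, are shown as the 250 bases before the start site, 5′ to 3′ in the direction of the gene, with capitals marking the matches.
Mcm2, chr6:88898781-88899030, minus strand: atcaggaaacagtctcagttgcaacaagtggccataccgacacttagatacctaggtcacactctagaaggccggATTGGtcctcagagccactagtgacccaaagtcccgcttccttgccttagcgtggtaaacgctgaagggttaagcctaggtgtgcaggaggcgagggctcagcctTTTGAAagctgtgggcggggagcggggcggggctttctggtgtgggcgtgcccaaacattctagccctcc
Cdk1, chr10:69352913-69353162, minus strand: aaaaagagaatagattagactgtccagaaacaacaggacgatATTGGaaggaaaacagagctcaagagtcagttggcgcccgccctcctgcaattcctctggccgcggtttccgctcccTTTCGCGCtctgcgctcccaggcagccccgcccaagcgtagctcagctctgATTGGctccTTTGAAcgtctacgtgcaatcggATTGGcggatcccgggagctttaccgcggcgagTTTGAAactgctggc
*Mcm2* has a CCAAT box on the other strand (ATTGG) and a CHR 70 bases before the start, with no match to the E2F letters in this window. *Cdk1* has an E2F match 131 bases before the start, 3 CCAAT boxes on the other strand, and CHR matches at 71 and 15 bases. The 11 tested members with a CHR, *Top2a* among them, had a median log2 fold change of −0.00323 and the 19 without one of 0.0398. The 6 tested members with an E2F match had a median of 0.122, with 5 above 0 and 1 below, and the 24 without had 0.00545. These medians are descriptions, and all lie within 0.2 of 0.

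The members were set beside other genes of the same pathway. Of 142 further cell cycle genes, 118 were tested, 0 passed the adjustment in limma and 11 (9.32%) had an unadjusted p below 0.05, against 11.9% of all probes. Of the 11, 5 were higher and 6 lower, against 5.24% and 6.63% of all probes, and the median log2 fold change of the 118 was −0.00231. By list, 4 of 38 genes of DNA replication and S phase, 3 of 44 of G2 and mitosis and 4 of 36 regulators had p below 0.05, shares that lie below the 11.9% of all probes. Without ND 1 the number over the 3 lists was 5 and without ND 2 it was 7. *Mycn*, a transcription factor of the Myc family, was at 0.05, 0.03 and 0.17 in the ND hearts and −0.77, −0.63 and −0.51 in the HFD hearts. The diets were well apart, with a log2 fold change of −0.72 (SE 0.09, limma unadjusted p = 0.000227, adjusted p = 0.104). *Spc24*, a subunit of the kinetochore NDC80 complex, had −0.69 (SE 0.13, adjusted p = 0.194), from −0.19 ± 0.22 (SD, n = 3) in ND to −0.88 ± 0.13 in HFD.

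Targets of p53 include *Cdkn1a*. A list of 22 further genes, which also holds *Trp53*, the gene of p53 itself, had 21 on the array and 20 tested. In limma 0 of them passed the adjustment and 5 (25.0%, against 11.9% of all probes) had an unadjusted p below 0.05, 2 higher and 3 lower. The median log2 fold change was −0.0168. *Btg2*, an antiproliferative gene that is also an immediate early gene, had 0.62 (SE 0.25, adjusted p = 0.413), with HFD 2 highest at 2.60. *Plk2*, a polo-like kinase, had −0.63 (SE 0.19, adjusted p = 0.311), and *Sesn1*, a stress-inducible regulator of mTORC1, −0.50 (SE 0.14, adjusted p = 0.284). The list thus held differences in both directions. Without ND 1, ND 3 or HFD 2, and with no filter on dim probes, 2 of the genes had an unadjusted p below 0.05, and without HFD 1 it was 3.

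Markers of other cell types were read on the same arrays, since dividing cells of the heart are mostly not cardiomyocytes. The 10 endothelial markers had median log2 fold changes of 0.0772, the 10 fibroblast markers of 0.011 and the 10 macrophage markers of −0.102. At an unadjusted p below 0.05 in limma, where 6.63% of all probes were lower, 2, 1 and 1 of these markers were lower and 0 higher. Their linear levels were summed over genes, so that the brightest probes weigh most. The sums overlapped between the diets for each of these cell types. They were 140 to 154 in ND and 130 to 144 in HFD for endothelial cells. For fibroblasts they were 537 to 569 and 473 to 572, and for macrophages 58.8 to 62.6 and 59.5 to 62.3. Of 10 erythroid markers 6 were tested, and all 6 were lower in HFD (median log2 fold change −0.595), 5 of them at an unadjusted p below 0.05. Their summed level was 622 to 798 in ND and 399 to 554 in HFD, and no array had *Gata1*, a defining marker, well above background. The summed level of 8 mural markers was 96.3 to 118 in ND and 97.8 to 238 in HFD, highest in HFD 1, and that of 5 tested atrial markers ran from 291 to 1030 and from 131 to 1210. HFD 1, the heart with the highest mural level, was also the lowest for *Cdkn1c* and for 1 of the 2 *Cdkn1b* probes, and the part of mural cells in these levels was not tested. Of the 17 members lower in HFD, *Ccne1* alone had an unadjusted p below 0.05 in limma, but its HFD 1 level lay among the ND hearts. In the erythroid sum each HFD heart lay below each ND heart. The part of blood cells in the *Ccne1* level was not tested.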

How the data were processed

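Total RNA of 6 mouse hearts was labelled with Cy3 and hybridised to 6 Agilent arrays (1 colour). The deposited intensity is a linear value from which the authors' software (Agilent Feature Extraction 10.7, per the submitters' processing notes) had subtracted background, with nothing normalized between arrays. The authors also deposited a log2 table, whose columns followed their own arrays (Spearman's rho of 1 across probes) and matched a quantile normalization of the intensities. Its columns are uncentred levels with medians of 4.56, and how it was made is not given in the sources used here.

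Spots flagged as outliers were left out, spots of a probe were averaged, and log2 intensity was expressed relative to the 75th percentile of the array. A probe was tested (27585 were) if all arrays of 1 diet had it well above background and each diet had it measured on 2 arrays or more. HFD and ND were compared with limma 3.58.1 (lmFit and eBayes, two-sided, Benjamini-Hochberg) in R 4.3.3. Tables and figures were made in Python 3.11.15. The code was tested on simulated data. The 3 hearts per diet limit the precision. The p-values set the difference between the diets against the spread between these hearts, in limma with variances shared across probes. Replicate numbers did not pair the hearts (correlations of −0.154, 0.147 and 0.19).

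The members were chosen by gene name and not by their values. Earlier results of these data were known when the members, lists and alternatives were chosen. Values per heart are given for each member with a probe at unadjusted p below 0.05, for the brightest member of each role and for *Mki67*, *Top2a*, *Ccnd1*, *Cdkn1a*, *Cdk1* and *Ccnb1*, and at times for others. Genes of other lists are named at an unadjusted p below 0.05 and a log2 fold change of at least 0.5 in size. Alternatives were quantile normalization, normexp background correction (offset 50), no filter, a filter on all 6 arrays, the methods' t-test, the log2 table, robust variances with an intensity trend, replicate and slide row blocks, outlier spots kept, the mean of a gene's probes and each heart left out. Promoter sequences are RefSeq's (GRCm38.p6).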

Additional observations from a re-analysis of the deposited data

How the results depend on the processing

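No member passed the adjustment under any of the 17 alternatives, where the lowest adjusted p was 0.194, and the same was true of the other lists under those tried for them. The members at an unadjusted p below 0.05 numbered 2 to 4 under the other settings and 1 to 5 with 1 heart left out. For the further cell cycle genes the numbers with 1 heart left out were 5 to 13, and for the p53 targets 2 to 5 (2 with no filter), with medians of −0.0277 to 0.0472 for the latter. Of 46 member probes, 22 kept their sign under every alternative, among them those of *Mcm2*, *E2f1*, *Ccne1* and *Cdk1*, and none of the 24 others had a log2 fold change over 0.23 in size. Their values with the sign turned follow. With normexp correction the log2 fold change was −0.00357 for *Ccnb1*, 0.04 for *Cdk4* (A_55_P2163143), 0.01 for *Aurka* and −0.04 for *Cdkn1b* (A_52_P673863). With slide row as a block, which sets HFD 3 alone against the ND hearts, the log2 fold change was −0.07 for *Ccnb1*, −0.03 for *Ccnd3* (A_55_P2041075), 0.06 for *Cdk4* (A_55_P2163143), 0.07 for *Cdkn1b* (A_55_P2026562), 0.05 for *Cdkn1c*, −0.29 for *Mcm5*, 0.01 for *Tk1*, −0.15 for *Foxm1*, −0.04 for *Ccnd3* (A_51_P238448), −0.03 for *Cdk4* (A_55_P1998188) and −0.19 for *Cdkn1a* (A_55_P1986282). With quantile normalization the log2 fold change was 0.02 for *Cdk4* (A_55_P2163143), 0.00392 for *Aurka* and 0.01 for *Cenpa*. With the authors' log2 table the log2 fold change was 0.01 for *Cdk4* (A_55_P2163143), 0.00241 for *Aurka* and 0.01 for *Cenpa*. With the mean of a gene's tested probes the log2 fold change was 0.01 for *Cdk4* and 0.14 for *Birc5*. These are values of the gene means, set against the brightest probes (A_55_P2163143 and A_55_P1983773), and not values of those probes. Leaving out 1 heart at a time gave log2 fold changes of −0.11 to 0.11 for *Ccna2*, −0.10 to 0.09 for *Ccnb1*, −0.03 to 0.09 for *Ccnd3* (A_55_P2041075), −0.03 to 0.04 for *Cdk4* (A_55_P2163143), −0.05 to 0.32 for *Cdkn1a* (A_51_P363947), −0.16 to 0.05 for *Cdkn1b* (A_55_P2026562), −0.14 to 0.07 for *Cdkn1c* and −0.06 to 0.14 for *Cdkn2c*. It also gave −0.16 to 0.15 for *Mcm5*, −0.04 to 0.14 for *Pcna*, −0.14 to 0.04 for *Tk1*, −0.42 to 0.13 for *Tyms*, −0.08 to 0.05 for *Birc5* (A_55_P1983773), −0.09 to 0.07 for *Aurka*, −0.01 to 0.10 for *Cdc20* and −0.05 to 0.26 for *Foxm1*. The remaining ranges were −0.03 to 0.04 for *Cenpa*, −0.18 to 0.15 for *Ube2c* (A_51_P451151), −0.07 to 0.04 for *Mki67* (A_55_P2073377), −0.01 to 0.03 for *Cdk4* (A_55_P1998188), −0.01 to 0.03 for *Cdk4* (A_55_P2166639), −0.04 to 0.45 for *Cdkn1a* (A_55_P1986282) and −0.09 to 0.07 for *Cdkn1b* (A_52_P673863).

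The replicate block, which assumes a pairing that the numbers do not give, left 2 members, 12 further cell cycle genes and 5 p53 targets at an unadjusted p below 0.05. It gave a log2 fold change of 0.52 for *Mcm2* (unadjusted p = 0.0212), and 0 members passed the adjustment. Probes near background limit what can be read: *Cdk1* and *E2f1* were among the probes with the largest shifts under normexp, and the cause was not tested.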
